A study of Mus musculus with 6 samples.

Results

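In fat of mice with a transgene for nuclear SREBP-1c, RNA of Insig1 was 4.89-fold, of Stard4 5.59-fold (at its brightest probe set) and of Srebf1 2.11-fold that of wild type fat. On the log2 scale these differences were 2.29 ± 0.22, 2.48 ± 0.26 and 1.08 ± 0.19 (SE, 3 mice per group). Whether the Srebf1 probe set reads RNA of the transgene is not known, and Srebf1 did not pass the test under 8 of 17 alternative settings. RNA of Srebf2, Scap, Insig2, Mbtps1 and Mbtps2 did not pass the test in either direction. These 8 genes encode the sterol regulatory element binding proteins (SREBPs), the proteins that hold, escort and cleave them, and a sterol carrier of the same system. All probe sets were taken that are paired with exactly 1 gene symbol that is one of the 8. That gave 16 of the 45101 probe sets of the array, for 8 of 18194 named genes: 3 each for Insig2, Mbtps1 and Stard4, 2 each for Srebf2 and Scap, and 1 each for Srebf1, Insig1 and Mbtps2. A further probe set, shared by Mbtps2 and another gene, was left out.

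Epididymal white fat was taken from male mice aged 10 weeks on a C57BL6;SJL background, and total RNA of each mouse was measured on its own Affymetrix mouse array. The 3 transgenic mice are labelled aP2-nSrebp1c Tg, aP2-nSrebp1 Tg and aP2-SREBP1c Tg, and all are titled as 1 mutant group. The 3 controls are labelled WT C57BL6;SJL and were matched by litter, though no label ties a control to a given transgenic mouse. The aP2 promoter, that of the fatty acid binding protein gene Fabp4, drives the transgene in fat cells, and the labels call the mice lipodystrophic, which means that they lack normal fat tissue.

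SREBPs are made as precursors anchored in the membrane of the endoplasmic reticulum (ER). There they bind SCAP, and when the membrane holds enough sterol, SCAP is kept in place by INSIG proteins. When sterol falls, SCAP carries the precursor in COPII vesicles to the Golgi, where the site-1 protease (Mbtps1) and then the site-2 protease (Mbtps2) release the nuclear form, which turns on genes of sterol and fatty acid synthesis. Insig1, Srebf1, Srebf2 and Stard4 are known targets of the nuclear form. The nuclear SREBP-1c of the transgene needs neither escort nor cleavage.

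The promoters of the SREBP genes and their regulators were searched for the letters that nuclear SREBPs are known to bind. RefSeq windows (build GRCm38.p6) that run from 250 bases before to 50 bases after an annotated start were at hand for 7 members, with 12 windows between them, and both strands were read. The sterol regulatory element was searched as TCACNCCAC, which 1.24% of the 32851 windows of all genes hold, and 0 of the 12 member windows. With at most 1 mismatch it was found in 1 window each of Srebf2, Insig1 and Insig2, a share of the 12 close to the 24.2% of all windows. The E-box CACGTG, which 7.15% of all windows hold, was found in Insig1 and in both Scap windows, which overlap. No window of Srebf1, Mbtps1 or Mbtps2 held either of these matches. Of the genes that passed the test, Insig1 held a match, Srebf1 held none and Stard4 had no window. Insig2, Srebf2 and Scap, which did not pass, also held matches, so the matches do not set the 2 kinds of gene apart. The stretches with a match are shown 5′ to 3′ on the strand of the gene. Capitals mark the matched letters.
Insig1, chr5:28071301-28071421, plus strand: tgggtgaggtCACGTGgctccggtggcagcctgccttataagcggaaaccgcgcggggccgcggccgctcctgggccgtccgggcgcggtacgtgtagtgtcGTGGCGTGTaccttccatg
Insig2, chr1:121328017-121328045, minus strand: cacgagtcccTCACTCCGCccacagagtc
Srebf2, chr15:82147097-82147125, plus strand: tgacgcaccaTCACCCCATgagccgcttc
Scap, chr9:110333306-110333331, plus strand: ccgccgggagCACGTGtggagggcgg

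In the Insig1 stretch the E-box begins at position -101 from the start, and the near match to the sterol element, which reads along the opposite strand, begins at -9. Among the member windows, that of Insig1 is the one that holds both kinds of match. The near match of Insig2 begins at -11 and overlaps a GGGCGG box of the opposite strand, and that of Srebf2 begins at -162. The E-box of Scap lies at -40 from one of its annotated starts and at 29 from the other. CCAAT, the letters bound by NF-Y, stood in windows of Srebf1, Srebf2, Insig1 and Insig2 (37.4% of all windows, 41.1% of all genes with a window). GGGCGG, bound by Sp1, stood in at least 1 window of each of the 7 genes except Mbtps2 (35.7% of all windows, 38.2% of all genes with a window). These are matches of letters in a short window and carry no measurement of binding.

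The array of transgenic replicate 2 stood apart from the rest. Its actin control gave a 3′ over 5′ signal ratio of 122.4, where 1.11 to 1.81 was seen elsewhere, and its median signal was 37.7 against 53.4 to 65.4. A ratio of this kind is the usual sign of shortened RNA, so values are given with and without that array. The 3′ over 5′ ratio of the pyruvate carboxylase control split the arrays another way. It was 3.06 on wild type replicate 3 and 3.10 on transgenic replicate 1, and 14.1 to 52.0 on the other 4 arrays. The called members are also given within these 2 classes, with the low ratio (1 array per group) first. The high class includes transgenic replicate 2, and the values within classes are a description that was not tested. The tissue carried its defining markers: the summed signal of 10 adipocyte markers was 74963.9 to 82801.3 on wild type and 41874.1 to 59078.1 on transgenic arrays. Of these 10 genes, 2 were called lower and 0 higher (6 lower without transgenic replicate 2). Over all genes tested 1.54% were called lower and 2.23% higher (7.33% and 8.04% without that array). The summed signal of 12 macrophage markers was 15495.4 to 19242.1 on wild type and 28313.1 to 39364.0 on transgenic arrays. Of the 11 tested, 3 were called higher (6 without that array). Endothelial (5953.4 to 6511.6 against 1818.3 to 4850.2) and mesothelial markers (4441.6 to 5058.5 against 614.2 to 1844.8) were lower in sum on the transgenic arrays. The sums of 1818.3 and 614.2 were those of transgenic replicate 2. With all 6 arrays 0 of 6 endothelial and 1 of 5 mesothelial genes were called lower (3 and 4 without that array). The skeletal muscle sum was also lower (533.4 to 1220.1 against 188.3 to 372.7), through Acta1 (1043.3, 393.4 and 1003.9 against 172.1, 25.7 and 125.0). Acta1 itself was not called with all 6 arrays (limma adjusted p = 0.0737). The other tested muscle markers, Ckm and Mylpf, were not lower (log2 differences of 0.13 and 0.23, not called). Markers of T and B lymphocytes were higher in sum (297.9 to 336.3 against 451.5 to 608.9), but 0 of the 5 tested were called higher (1 without transgenic replicate 2). The 6 markers of epididymis and testis summed to 76.2 to 152.2 and 125.4 to 170.7, and 2 of them were below a signal of 16 on every array. The part of these shifts in the differences that follow was not tested, and in RNA of whole fat, fewer cells of a type and less RNA per cell cannot be told apart.

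Differences are transgenic minus wild type means of log2(signal + 16), where the signal is the deposited MAS5 intensity, and adjusted p-values are from limma with Benjamini-Hochberg adjustment over the 27023 probe sets tested, with a threshold of 0.05. Of the 16 member probe sets 14 were bright enough to be tested, of which 4 (in 3 genes) were higher, 0 were lower and 10 did not pass. At an unadjusted limma p under 0.05 the counts were also 4 and 0. The share of all tested probe sets at that unadjusted threshold was not counted, so unadjusted counts have no background to be read against. Over all tested probe sets 1.67% were called higher and 1.3% lower. With transgenic replicate 2 left out, 5 of the 14 were higher, in the same 3 genes, and 0 lower (5 and 2 at an unadjusted limma p under 0.05), while 6.96% and 6.23% of all tested probe sets were called higher and lower. The median difference of the 14 was -0.14 against -0.09 over all tested probe sets, and without transgenic replicate 2 both were near 0 (0.02 and 0.03). In 5 of the 14 every transgenic signal was above every wild type signal and in 2 every one was below, while 11.9% and 15.3% of all tested probe sets were separated in these directions. Quantile normalization moved the median of all tested probe sets from -0.09 to 0.02, while the difference of Srebf1 went from 1.08 to 0.95 and that of Insig1 from 2.29 to 2.22.

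**Figure D1:**
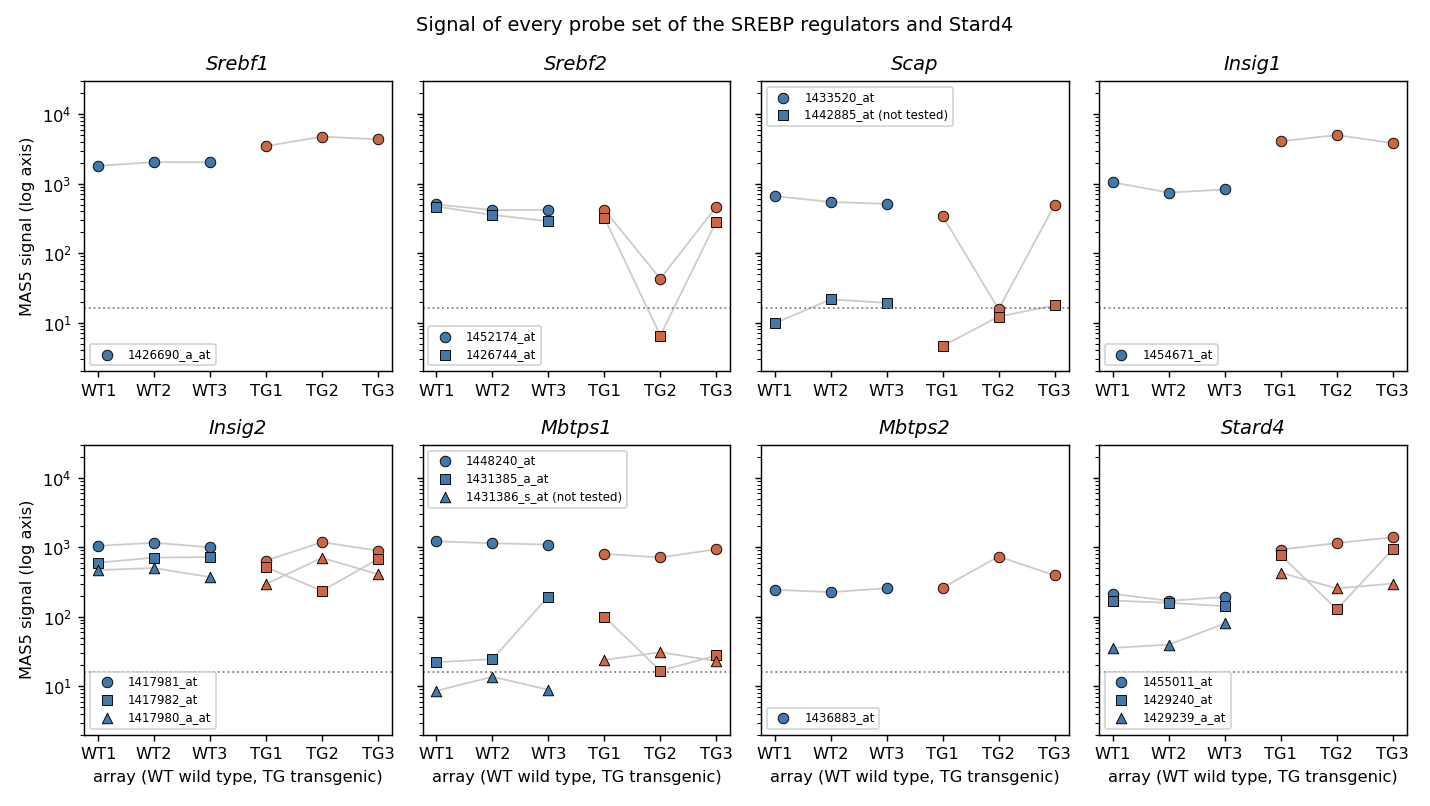
MAS5 signal on a log axis of all 16 probe sets of the 8 genes on each wild type (WT, blue) and transgenic (TG, red) array; symbols mark the probe sets of a gene and the dotted line is the offset of 16. Srebf1 and Insig1 are higher on all 3 transgenic arrays, while Srebf2 and Scap reach their lowest signals on transgenic replicate 2 (42.7 and 15.6 at the brighter probe set).

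Insig1 encodes the ER protein that holds the SCAP-SREBP complex back and is itself a target of SREBP. Its probe set (1454671_at) had signals of 1042.3, 744.7 and 824.5 on the wild type arrays 1, 2 and 3, and of 4080.3, 5006.3 and 3829.4 on the transgenic arrays. All 3 transgenic signals were above the highest wild type signal, and the groups did not come near each other. The mean was 870.5 ± 154 (SD, n = 3) in wild type and 4305.3 in transgenic fat. The difference was 2.29 ± 0.22 (SE) on the log2 scale, or 4.89-fold (95% interval of the log2 value 1.77 to 2.81; limma adjusted p = 0.00425). It was 2.18 ± 0.18, or 4.52-fold, without transgenic replicate 2 (limma adjusted p = 8.87e-05). Insig1 passed the threshold whichever of the 6 arrays was left out (limma adjusted p up to 0.0441). Within the 2 classes of pyruvate carboxylase ratio the difference was 2.29 and 2.29.

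Insig2 encodes the second INSIG protein, which also binds SCAP and which is not known as a direct target of SREBP. Its brightest probe set (1417981_at) read 1051.4, 1162.6 and 1000.4 in wild type and 645.2, 1184.7 and 893.9 in transgenic fat. The groups overlap, with transgenic replicate 2 the highest of all 6 arrays and the other 2 transgenic arrays below the wild type range. The difference was -0.27 ± 0.28 (SE; limma adjusted p = 0.647), and without transgenic replicate 2 it was -0.48 ± 0.19 (limma adjusted p = 0.143). It passed as lower when that array was left out and the others were quantile normalized (-0.52, limma adjusted p = 0.0258).

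The other probe sets of Insig2 gave no call either. For 1417982_at the wild type signals were 600.9 to 722.1, and the transgenic signals were 516.0, 235.8 and 676.3. Its difference was -0.61 ± 0.40 (limma adjusted p = 0.497; -0.19 without transgenic replicate 2). For 1417980_a_at the wild type signals were 372.1 to 502.5, and the transgenic signals were 296.1, 704.8 and 409.6, with a difference of -0.01 ± 0.36 (limma adjusted p = 0.992; -0.34 without transgenic replicate 2). On transgenic replicate 2 the 3 probe sets of Insig2 moved apart: that array was 0.63 and 0.98 above the mean of the other 2 transgenic arrays on the log2 scale for 1417981_at and 1417980_a_at, and stood at -1.27 from it for 1417982_at.

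Whether Insig1 and Insig2 changed unequally was tested within each array, as the log2(signal + 16) of 1454671_at minus that of 1417981_at. This quantity was -0.01, -0.63 and -0.27 on the wild type arrays and 2.63, 2.06 and 2.08 on the transgenic arrays. The groups did not overlap. Their means were -0.31 ± 0.31 and 2.26 ± 0.32 (SD, n = 3 each), a difference of 2.56 (exact two-sided permutation test, p = 0.1, the smallest that 3 against 3 arrays can give, and 0.1 after adjustment over the 2 paralogue tests). The difference was 2.66 without transgenic replicate 2.

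Srebf1 encodes SREBP-1a and SREBP-1c, the form that favours fatty acid synthesis, and it is the gene whose nuclear form the transgene carries. Its probe set (1426690_a_at) read 1802.0, 2040.2 and 2036.2 in wild type and 3470.9, 4752.7 and 4337.7 in transgenic fat. Every transgenic array was above every wild type array. The difference was 1.08 ± 0.19 (SE), or 2.11-fold (95% interval 0.63 to 1.53; limma adjusted p = 0.0342), and 0.98 ± 0.16 without transgenic replicate 2 (limma adjusted p = 0.00356). Whether this probe set reads the transgene RNA, the RNA of the mouse gene or both is not stated by the labels, and these cannot be told apart. The call was lost without wild type replicate 1, 2 or 3 (limma adjusted p = 0.188, 0.187 and 0.168) and without transgenic replicate 3 (0.118). Within the 2 classes of pyruvate carboxylase ratio the difference was 0.76 and 1.24.

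Srebf2 encodes SREBP-2, the form that favours sterol synthesis. Its brighter probe set (1452174_at) read 502.0, 416.6 and 417.0 in wild type and 419.2, 42.7 and 466.8 in transgenic fat. Transgenic replicates 1 and 3 lay within the wild type range, and transgenic replicate 2 was at 9.59% of the wild type mean. The difference was -0.99 ± 0.79 (SE; limma adjusted p = 0.565). Without that array it was -0.0036 ± 0.19, with a 95% interval of -0.42 to 0.42 (limma adjusted p = 0.993). The dimmer probe set (1426744_at) showed the same drop, with 468.4, 354.5 and 288.0 in wild type and 322.4, 6.5 and 284.4 in transgenic fat. Its difference was -1.53 ± 1.01 (limma adjusted p = 0.501), and -0.25 ± 0.23 without transgenic replicate 2 (limma adjusted p = 0.552).

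The change of Srebf1 was set against that of Srebf2 in the same way, as 1426690_a_at minus 1452174_at on each array. It was 1.81, 2.25 and 2.24 on the wild type arrays and 3.00, 6.34 and 3.17 on the transgenic arrays. The groups did not overlap, and transgenic replicate 2 stood far above the rest. The means were 2.10 ± 0.25 and 4.17 ± 1.88 (SD, n = 3 each), which differed by 2.07 (exact two-sided permutation test, p = 0.1, the smallest possible, and 0.1 adjusted over the 2 tests). With transgenic replicate 2 left out this difference was 0.99.

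**Figure D2:**
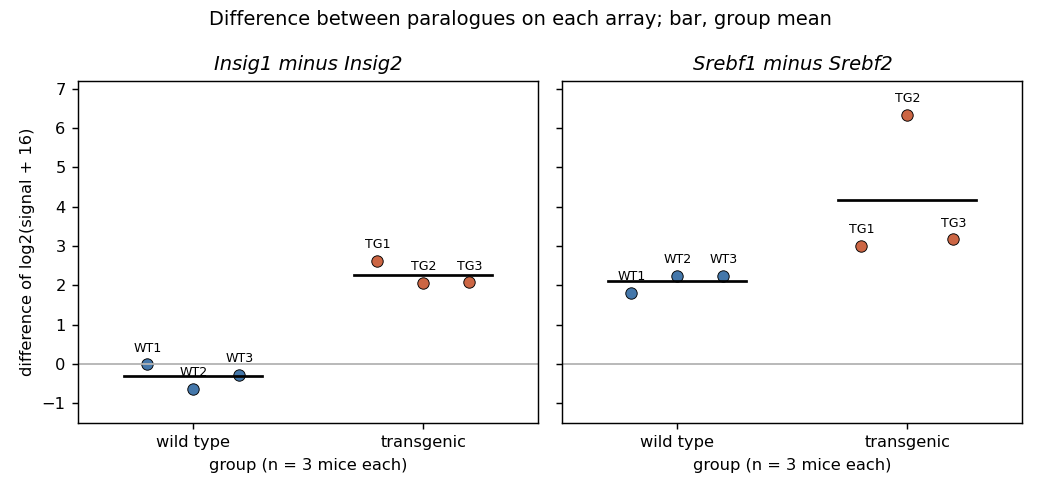
Difference of log2(signal + 16) between the brightest probe sets of Insig1 and Insig2 (left) and of Srebf1 and Srebf2 (right) on each array, with a bar at the group mean (n = 3 mice each). Both differences are higher on every transgenic array, and for the Srebf pair transgenic replicate 2 lies apart at 6.34.

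Scap encodes the sterol sensor that escorts SREBP from the ER to the Golgi. Its brighter probe set (1433520_at) read 662.2, 545.0 and 511.2 in wild type and 341.0, 15.6 and 493.5 in transgenic fat. All 3 transgenic signals were below the wild type range, transgenic replicate 3 by a small margin and transgenic replicate 2 by far. The difference was -1.71 ± 0.99 (SE; limma adjusted p = 0.447), and without transgenic replicate 2 it was -0.46 ± 0.22 (limma adjusted p = 0.222). The other Scap probe set (1442885_at) was too dim to be tested, with signals of 9.8, 21.6 and 19.2 in wild type and 4.6, 12.2 and 17.7 in transgenic fat.

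Mbtps1 encodes the site-1 protease, a subtilisin-like enzyme that makes the first cut. Its brightest probe set (1448240_at) read 1218.7, 1144.4 and 1090.4 in wild type and 803.4, 715.1 and 935.3 in transgenic fat. The groups did not overlap and the transgenic signals were lower. The difference was -0.49 ± 0.22 (SE; limma adjusted p = 0.325) and -0.40 ± 0.17 without transgenic replicate 2 (limma adjusted p = 0.163), so it did not pass the test. It passed when that array was left out and the others were quantile normalized (-0.43, limma adjusted p = 0.0208). The other probe sets of Mbtps1 were dim. For 1431385_a_at the signals were 22.2, 24.5 and 195.4 in wild type and 100.4, 16.7 and 27.7 in transgenic fat, with 1 bright array in each group and no call (limma adjusted p = 0.852). For 1431386_s_at, which was not tested, they were 8.6, 13.7 and 8.9 in wild type and 23.9, 30.8 and 23.1 in transgenic fat, close to the offset of 16.

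Mbtps2 encodes the site-2 protease, a metalloprotease that cuts within the membrane. Its probe set (1436883_at) read 245.1, 226.3 and 257.6 in wild type and 262.5, 736.9 and 394.4 in transgenic fat. All transgenic signals were above the wild type range, transgenic replicate 1 by a small margin. The difference was 0.77 ± 0.38 (SE; limma adjusted p = 0.383) and 0.39 ± 0.22 without transgenic replicate 2 (limma adjusted p = 0.309).

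Stard4 encodes a soluble carrier that moves cholesterol between membranes and is a known SREBP-2 target. Its brightest probe set (1455011_at) read 213.6, 169.8 and 192.4 in wild type and 929.0, 1149.7 and 1393.7 in transgenic fat, with no overlap. The difference was 2.48 ± 0.26 (SE), or 5.59-fold (limma adjusted p = 0.00554), and 2.48 ± 0.22 without transgenic replicate 2 (limma adjusted p = 0.000128). The call was lost without wild type replicate 2 (limma adjusted p = 0.063) or 3 (0.0506). A second probe set (1429239_a_at) read 35.7, 39.7 and 80.0 in wild type and 429.5, 255.7 and 300.8 in transgenic fat, again with no overlap. It was higher by 2.37 ± 0.33, or 5.18-fold (limma adjusted p = 0.0163). That call was lost without wild type replicate 1 (0.106) or 2 (0.12) and without transgenic replicate 3 (0.068), in each case as limma adjusted p.

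The third probe set of Stard4 (1429240_at) gave the same size of difference on 2 of the 3 transgenic arrays. It read 170.8, 158.7 and 141.7 in wild type and 767.3, 127.9 and 938.0 in transgenic fat. Transgenic replicate 2 was thus below the wild type range while transgenic replicates 1 and 3 were far above it. With all arrays the difference was 1.46 ± 0.70 (SE; limma adjusted p = 0.361), and without transgenic replicate 2 it was 2.32 ± 0.19, or 5.01-fold (limma adjusted p = 8.76e-05). Within the 2 classes of pyruvate carboxylase ratio the differences of Stard4 were 2.18 and 2.63 for 1455011_at and 2.21 and 2.45 for 1429239_a_at.

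**Figure D3:**
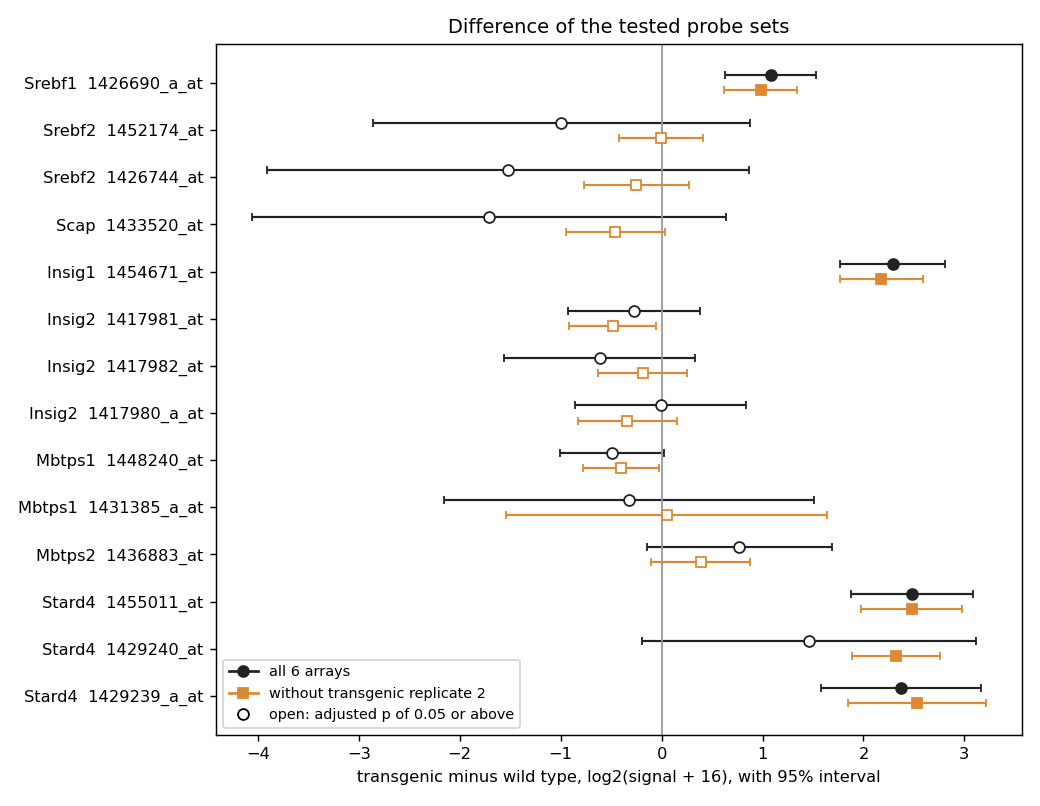
Transgenic minus wild type difference of log2(signal + 16) with its 95% interval for the 14 tested probe sets, with all 6 arrays (black circles) and without transgenic replicate 2 (orange squares); filled symbols have an adjusted p under 0.05. Insig1, Srebf1 and Stard4 lie to the right of 0, and the wide intervals of Srebf2 and Scap narrow without that array.

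How far transgenic replicate 2 lay from the other 2 transgenic arrays differed between probe sets of these genes. Over all tested probe sets the median of that distance was -0.30 on the log2 scale. It was -2.97 and -3.82 for the probe sets of Srebf2, -3.75 for Scap 1433520_at and -2.59 for Stard4 1429240_at, values that 4.36%, 1.7%, 1.82% and 6.46% of tested probe sets reach or go below. For Srebf1 (0.29), Insig1 (0.34) and Stard4 1455011_at (0.01) that array lay close to the others. For Mbtps2 it was 1.16 above them, and 98.7% of tested probe sets were at or below that value. The calls for Insig1, Srebf1 and 1455011_at therefore did not rest on this array, as their values without it show.

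The genes whose log2 values followed those of Srebf1 and Insig1 most closely over the 6 arrays were named as a description. For Srebf1 these were Atl3, the ER-shaping GTPase atlastin 3 (Pearson r = 0.997), Mdrl (0.996) and the glutaredoxin gene Glrx (0.995), and 377 genes had an r of at least 0.95. For Insig1 they were Nap1l5 (0.998), the oxidised LDL receptor gene Olr1 (0.997) and Eda2r, a receptor for ectodysplasin (0.997), among 342 genes at that level. The 6 points of each r are 2 groups of 3 arrays, so r holds the difference between the groups. Olr1, for one, had signals of 38.3, 13.6 and 27.7 in wild type and 735.0, 874.2 and 698.0 in transgenic fat.

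Other genes of the SREBP system were read in 8 lists, each gene by its brightest tested probe set. Over all 13112 genes tested 2.23% passed as higher and 1.54% as lower. The shares were 8.04% and 7.33% with transgenic replicate 2 left out. The median difference over all genes was -0.04, and 0.02 without that array. Of the sterol synthesis and uptake list, targets of SREBP, 12 of 17 tested genes were higher and 0 lower, with a median of 2.57 (15 of 17 and 3.30 without transgenic replicate 2). Another 5 of the 22 listed genes have no probe set with 1 gene in the table used here. The largest differences were those of Mvd (4.51, limma adjusted p = 0.00348), Cyp51 (4.02, 0.000982), Lss (3.76, 0.00142) and Hsd17b7 (3.63, 0.011), all enzymes of the route to cholesterol. A second probe set of Mvd and 2 more of Hsd17b7 did not pass with all 6 arrays (limma adjusted p = 0.505, 0.242 and 0.299) and passed without transgenic replicate 2. One further probe set of Lss (0.79, limma adjusted p = 0.166) did not pass without that array either (0.82, limma adjusted p = 0.0848). Hsd17b7 did not pass without wild type replicate 1, 2 or 3 (limma adjusted p = 0.0649, 0.0844 and 0.0767) or transgenic replicate 3 (0.0588). The count for the list was 8 without wild type replicate 1 or 2.

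The fatty acid genes, targets of SREBP-1, had 7 of 16 higher and 0 lower, with a median of 0.81 (10 of 16 and 1.15 without transgenic replicate 2). Among the genes called at their brightest probe set the largest were Mid1ip1, an activator of acetyl-CoA carboxylase (2.84, limma adjusted p = 0.00158), the desaturase genes Fads1 (2.43, 0.00327) and Scd2 (1.60, 0.00584), and the elongase gene Elovl6 (1.42, 0.0275). Elovl6 did not pass without wild type replicate 1, 2 or 3 (limma adjusted p = 0.16, 0.179 and 0.108) or transgenic replicate 3 (0.101). Fads2, another desaturase gene, differed by 2.75 and did not pass at its brightest probe set (limma adjusted p = 0.118), and passed without transgenic replicate 2 (3.48, limma adjusted p = 0.000955). Of its other probe sets 1 passed with all 6 arrays (2.64, limma adjusted p = 0.0085) and 1 did not (1.33, limma adjusted p = 0.659). The further probe sets of Fads1, Scd2 and Elovl6 did not pass with all 6 arrays. The count was 3 or 4 without each of the 3 wild type arrays, and also without transgenic replicate 1 or 3.

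Lists of genes that act on SREBP or share its proteases showed no calls with all 6 arrays. Over all genes tested 2.23% passed as higher and 1.54% as lower, so lists of this size would hold few or no calls at that rate. Of the ER degradation and retention partners of SCAP and INSIG 0 of 15 tested genes passed in either direction (median 0.04), of the COPII coat and Golgi anchoring genes 0 of 13 (0.32), of the nuclear partners and turnover factors of SREBP 0 of 19 (0.15), and of other substrates of the site-1 and site-2 proteases 0 of 8 (-0.28). At an unadjusted limma p under 0.05 these lists had 2, 1, 1 and 0 genes higher and 0, 0, 0 and 1 lower. How many of all genes pass that unadjusted threshold was not counted, so it cannot be said whether these counts exceed the background. Without transgenic replicate 2 the first of these lists had 1 gene higher, the heme- and sterol-binding membrane protein gene Pgrmc1 (0.73, limma adjusted p = 0.00816). The nuclear list then had 1 gene higher, the kinase gene Akt2 (0.66, limma adjusted p = 0.0273), and the other 2 lists had 0. Without that array 8.04% of all genes were called higher and 7.33% lower, so these counts do not exceed the background.

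Genes of the liver X receptor (LXR) axis, which senses oxysterols and drives Srebf1 transcription, had 0 of 13 tested genes past the threshold with all arrays (median 0.13). At an unadjusted limma p under 0.05, 3 were higher and 0 lower, again with no count over all genes beside it. After transgenic replicate 2 was left out, 4 were higher and 0 lower. These were Nr1h3, which encodes LXR alpha (1.0, limma adjusted p = 0.00645), the sterol exporter genes Abca1 (0.69, 0.011) and Abcg1 (1.03, 0.0111), and the phospholipid remodelling gene Lpcat3 (2.41, 2.32e-05). On transgenic replicate 2 the signal of Nr1h3 was 149.9 and that of Lpcat3 587.4, both below their wild type ranges of 531.3 to 583.1 and 791.7 to 984.8, while the other 2 transgenic arrays were above those ranges.

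Of 14 tested genes with a sterol-sensing domain or a sterol carrier role, 1 was higher and 0 lower, with a median of 0.19. That gene was Star, the carrier that takes cholesterol into mitochondria for steroid synthesis. It read 176.5, 156.9 and 205.4 in wild type and 1228.5, 1026.2 and 1498.8 in transgenic fat, with no overlap. Its difference was 2.69 ± 0.26 (SE), or 6.44-fold (limma adjusted p = 0.00416), and the other 2 probe sets of Star were higher as well (3.94 and 4.62, limma adjusted p = 0.0383 and 0.00142). Without transgenic replicate 2, 4 genes of this list were higher (Star, Stard5, Osbpl8 and Gramd1b) and Ptch1, the sterol-sensing Hedgehog receptor gene, was lower (-1.31, limma adjusted p = 0.0065). For Gramd1b, the brightest probe set did not pass with all 6 arrays (1.24, limma adjusted p = 0.087). A dimmer probe set of Gramd1b did pass with all 6 arrays (1.32, limma adjusted p = 0.029). With all arrays Ptch1 differed by -1.07 (limma adjusted p = 0.172).

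**Figure D4:**
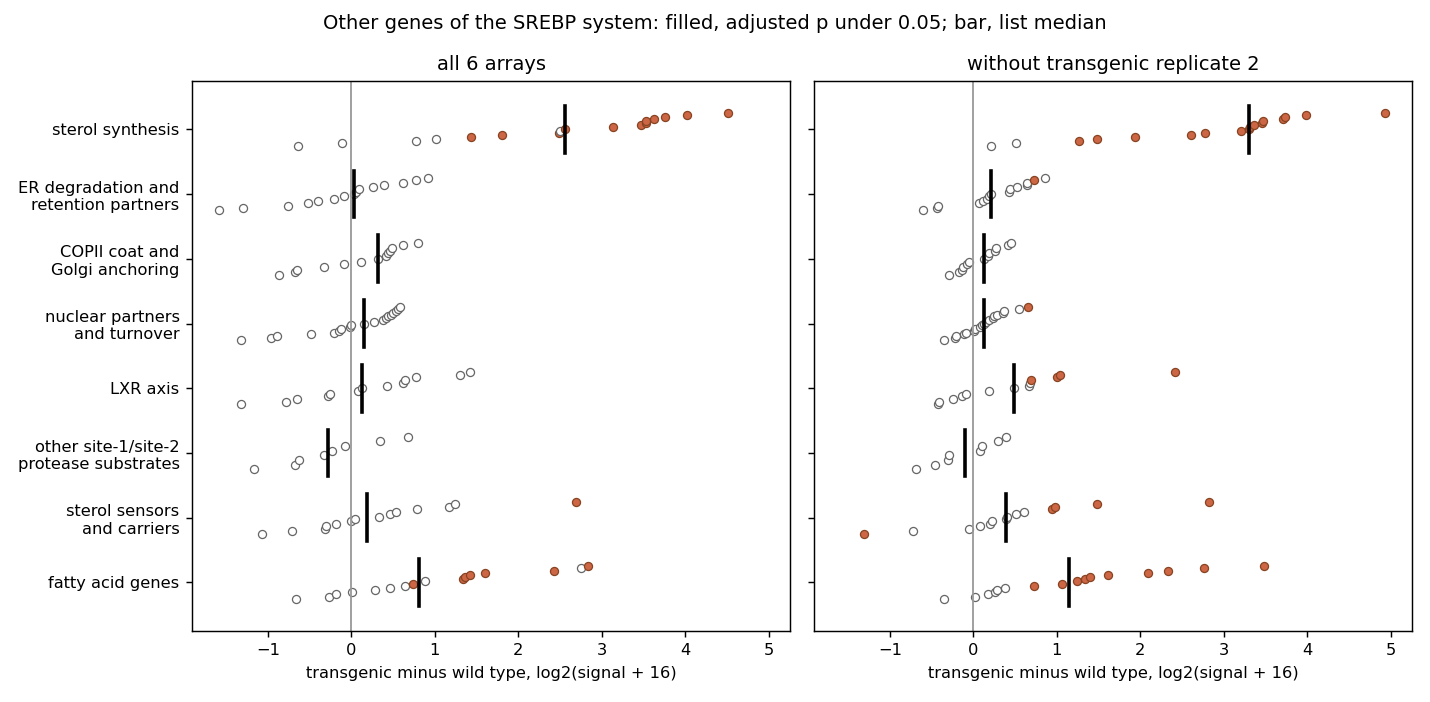
Transgenic minus wild type difference of log2(signal + 16) of each tested gene in the 8 lists, with all 6 arrays (left) and without transgenic replicate 2 (right); filled points have an adjusted p under 0.05 and bars are list medians. With all 6 arrays the sterol synthesis list has a median of 2.57 and the fatty acid list 0.81. The ER, COPII and nuclear lists have medians of 0.04, 0.32 and 0.15.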

How the data were processed

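The authors deposited 1 linear signal intensity per probe set and array, made with MAS5 per the submitters' processing notes. Its version and scaling target are not given in the sources used. MAS5 signals below about 16 are close to background, and the number of arrays limits the precision. Each array is 1 mouse.

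Probe sets were named through the platform annotation (34958 of 45101 with 1 gene, 932 with several, 9211 with none), and promoter windows came from RefSeq (GRCm38.p6). With R 4.3.3 and limma 3.58.1, log2(signal + 16) was tested with no normalization added. The 64 control probe sets and the 40% of probe sets lowest in mean were left out, and lmFit and eBayes (trend = TRUE, 4 residual degrees of freedom, two-sided) were followed by Benjamini-Hochberg adjustment over 27023 probe sets. These p-values reflect the spread among mice, handling included. Fold changes understate the change of dim probe sets. Exact permutation tests used scipy 1.17.1.

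The members and gene lists were chosen with earlier results of these data known. Text names every member probe set, up to 4 called genes per list with the largest difference, and the 3 genes most correlated with Srebf1 and with Insig1. Genes called at their brightest probe set only without transgenic replicate 2, Ptch1 and Fads2 were named after their values were seen.

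Alternatives were offsets of 1 and 64, no filter or 60%, quantile normalization, median centring, eBayes without trend or robust, array weights, a replicate block, the gene mean over probe sets, and each array left out, for transgenic replicate 2 also with quantile normalization.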

Additional observations from a re-analysis of the deposited data

How the results depend on the processing

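Insig1 kept its direction and passed under each of its 17 alternatives. Srebf1 was lost under 8 of 17 (without the filter, limma adjusted p = 0.0612; median centring, 0.112; no trend, 0.0587; the replicate block, 0.148; and 4 arrays left out in turn), while its difference stayed positive. Deviations from the group mean correlated at -0.37, 0.09 and -0.05 between arrays of the same replicate number. Deviations within a group depend on each other and no label ties the mice together, so whether these numbers pair the mice is not known. With a replicate block 3 member probe sets and 341 of all probe sets passed. The count of member probe sets, 4, was 7 without transgenic replicate 2 and with quantile normalization, which added Insig2 1417981_at (-0.52), Mbtps1 1448240_at (-0.43) and Stard4 1429240_at (2.32), and 1 to 5 with 1 array left out (2 without wild type replicate 1 or 3 or transgenic replicate 3, 1 without wild type replicate 2). The direction of 2 uncalled probe sets turned: Insig2 1417980_a_at was 0.022 with quantile normalization, 0.11 with median centring and -0.34 to 0.27 with 1 array left out, and Mbtps1 1431385_a_at was 0.034 with array weights, 0.007 without transgenic replicate 2 and with quantile normalization, and -0.866 to 0.484 with 1 array left out. The cause was not tested.

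The count over all probe sets, 802, was 3359 with array weights, 4976 without transgenic replicate 2 and with quantile normalization, and 141 to 3565 with 1 array left out. Fatty acid genes, 7, numbered 4 with median centring, 3 with the block, 11 without transgenic replicate 2 and with quantile normalization, 3 with the gene mean and 3 to 10 with 1 array left out. Sterol sensors and carriers, 1, numbered 2 with quantile normalization, median centring or the gene mean, 7 with array weights, 8 without transgenic replicate 2 and with quantile normalization, and 1 to 5 with 1 array left out. The LXR axis, 0, numbered 1 with the 60% filter or quantile normalization, 3 with array weights, 4 without transgenic replicate 2 and with quantile normalization, and 0 to 4 with 1 array left out. ER partners, 0, numbered 2 with array weights and 0 to 1 with 1 array left out, and nuclear partners, 0, numbered 1 and 0 to 1. Without transgenic replicate 2 and with quantile normalization, 5 ER partners, 2 nuclear partners, 2 COPII genes and 1 other protease substrate passed. The sterol synthesis count stayed within 1.5 times its value, and both paralogue differences kept their direction.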
